A study of Mus musculus with 24 samples.

Results

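The immediate early transcription factor genes *Fos*, *Fosb*, *Fosl1*, *Fosl2*, *Jun*, *Junb*, *Jund*, *Egr1*, *Ier2* and *Myc* were examined in mouse embryonic fibroblasts (MEFs) with and without the lysosomal transcription factors TFEB and TFE3. The 10 genes were chosen by symbol from a table of 55487 genes, and all 10 were among the 15401 genes with enough counts to be tested. mRNA had been sequenced from WT MEFs and from *tfeb tfe3* double-knockout (DKO) MEFs given vehicle (DMSO), torin1 or MK-8722, with 4 libraries in each of the 6 groups and 24 in all. DMSO was used at 0.1%, torin1 at 100 nM and MK-8722 at 10 μM, and the time these cells spent in drug is not given in the sources used here. Each genotype was 1 line of MEFs, so a difference between DKO and WT cannot be told apart from a difference between the lines. The labels give no age, sex or strain. The 4 libraries of a group came from 4 passages of the line (7, 8, 9 and 11 in WT and 8, 9, 10 and 11 in DKO), and each p-value measures the spread between such cultures. The same passages recur in each treatment of a line, and the main fit has no term for passage. Calls that change with passage as a block are given with their values.

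Immediate early genes are transcribed within minutes of a growth factor signal, without new protein synthesis, and their mRNAs are short-lived. The signal runs through ERK to the ternary complex factors and serum response factor (SRF) and through CREB. FOS and JUN proteins pair through leucine zippers to form AP-1, in which JUN proteins can pair with each other and FOS proteins need a JUN partner; JUNB and JUND are known to temper JUN. EGR1 is a zinc finger factor, IER2 a nuclear protein of less defined function, and MYC a driver of growth and ribosome genes that binds E-boxes with MAX. Torin1 blocks the kinase MTOR in both of its complexes, and MK-8722 activates AMPK directly. TFEB and TFE3 bind E-boxes of lysosomal genes and enter the nucleus when MTORC1 is off.

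Total counts per library ranged from 24668870 to 33332507, with a median of 27988313.5. Counts below are given as CPM, which set each library to a common total, scaled by edgeR's TMM factors, which ranged from 0.950 to 1.08, and are not corrected for gene length. To be called upregulated or downregulated, a gene had to pass 0.05 in the adjusted p of edgeR (quasi-likelihood, Benjamini-Hochberg over the 15401 genes) and to change by 1.2-fold or more. *Tfeb* stood at 14 to 25 CPM in the 12 WT libraries and at 1.34 to 2.65 CPM in the 12 libraries labelled DKO. *Tfe3* stood at 77.5 to 122 CPM in WT and at 89.5 to 126 CPM in DKO, so its count gave no check of its loss. Of 12 fibroblast markers, 9 had a mean above 1 CPM in every WT group and 8 in every DKO group, and *Lum*, *Fap* and *Dcn* reached at most 0.0747, 0.271 and 1.14 CPM in any library. *Thy1* had no counts in DKO with DMSO or torin1 and reached at most 4.51 CPM in any library. *Pdgfra* ranged from 4.21 to 177 CPM over the libraries. The summed markers of epithelial, endothelial, blood and muscle cells reached at most 14.6, 1.37, 14.6 and 7.06 CPM in any library, and those of neural cells 56.9 CPM, from *Tubb3* and *Map2*. Some of these sums moved with the groups, the epithelial one (mostly *Krt8*) from 2.83 to 4.61 CPM in WT with DMSO to 9.95 to 14.6 CPM in DKO with torin1 and the blood one (mostly *Cd68*, a lysosomal protein) from 1.93 to 2.49 CPM in WT with DMSO to 10.8 to 14.6 CPM in WT with MK-8722, with *Adgre1* at 0 in all 24 libraries, and their part in the results was not tested. The 3 WT libraries of passage 11 stood apart from the other WT libraries on the third principal component, and the results that change without them are given with their values.

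The most abundant subunits of AP-1 were *Jund*, *Fosl1* and *Junb*, while *Fos* and *Fosb*, the classic inducible members, were the lowest of the 10 genes in all 6 groups. Between genes, levels are compared here as TPM, a share of all transcripts that is corrected for transcript length. In WT with DMSO the mean level was 202 TPM for *Jund*, 136 TPM for *Fosl1*, 119 TPM for *Egr1*, 109 TPM for *Myc*, 76.8 TPM for *Junb*, 68.4 TPM for *Ier2*, 33.8 TPM for *Jun*, 21.1 TPM for *Fosl2*, 3.06 TPM for *Fos* and 1.08 TPM for *Fosb*. The libraries of *Fosl1* and *Egr1*, of *Egr1* and *Myc*, and of *Junb* and *Ier2* overlapped in that order, and those of the other neighbours did not. In DKO with DMSO the order was led by *Myc* at 176 TPM and *Junb* at 175 TPM, whose libraries overlapped, and *Jund* stood behind *Fosl1* and *Egr1*, at 109 TPM. The libraries of *Junb* and *Fosl1*, of *Fosl1* and *Egr1*, and of *Egr1* and *Jund* overlapped there too.

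The 7 AP-1 genes together made 474 ± 24.8 TPM (SD, n = 4) in WT with DMSO and 529 ± 13.9 TPM (SD, n = 4) in DKO with DMSO, and their makeup differed. *Jund* was 42.8% ± 4.06 (SD, n = 4) of the sum in WT and 20.5% ± 1.88 (SD, n = 4) in DKO. *Junb* was 16.2% ± 1.62 (SD, n = 4) in WT and 33.1% ± 3.27 (SD, n = 4) in DKO. The 3 JUN genes together held 66.1% ± 3.95 (SD, n = 4) in WT and 65.4% ± 4.46 (SD, n = 4) in DKO. With torin1 the sum was 342 ± 20.1 TPM (SD, n = 4) in WT and 426 ± 21.1 TPM (SD, n = 4) in DKO. *Fosl2* was 13.5% ± 0.840 (SD, n = 4) of the sum in DKO with torin1, against 5.28% ± 0.204 (SD, n = 4) in WT with torin1. These shares were not tested, since TPM holds no depth. Of each gene's estimated counts, 1 protein-coding transcript held 79.0% to 93.2% for *Fos* over the groups, at least 84.0% for *Fosl1* and *Fosl2*, and 73.5% to 76.4% for *Egr1*. *Jun*, *Junb*, *Jund* and *Ier2* have 1 transcript in the annotation, whereas the counts of *Myc* and *Fosb* were split over 7 each, with 20.9% to 23.4% on Myc-201, at least 21.5% on Myc-205, which was above Myc-201 in WT with torin1 or MK-8722 and in DKO with torin1, and 26.1% to 68.0% on Fosb-201, so that their TPM depends on how salmon divided the reads.

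**Figure D1:**
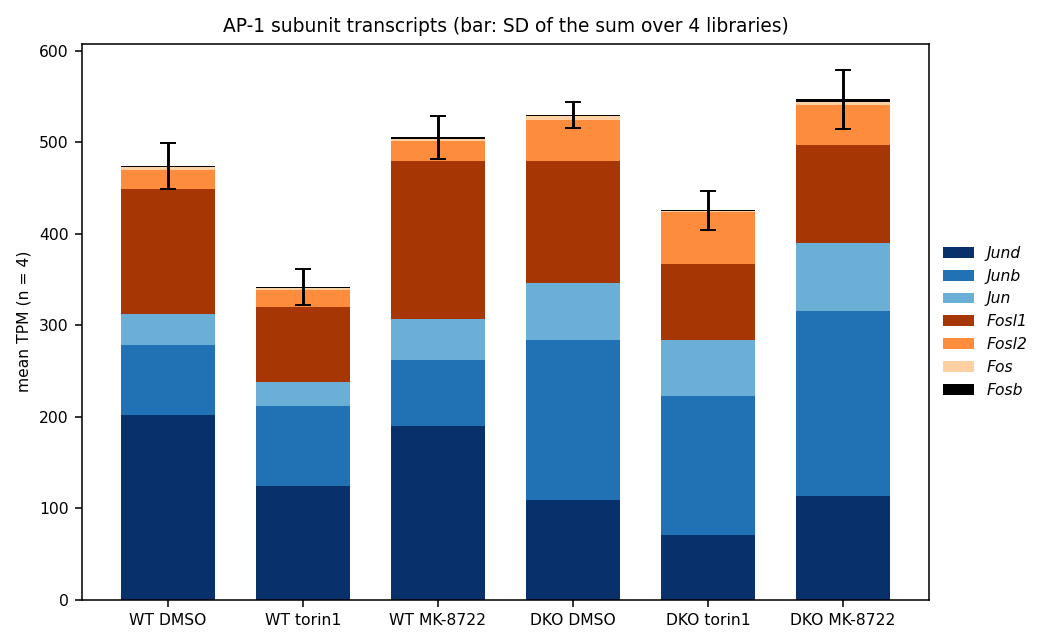
Mean TPM of the 7 AP-1 subunit genes stacked by group (4 libraries each), with the SD of the summed TPM as error bars. *Jund* is the largest segment in WT with DMSO (202 TPM) and *Junb* in DKO with DMSO (175 TPM), and the sum is lowest in WT with torin1 (342 TPM).

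Promoter sequence was at hand from RefSeq (GRCm38.p6) for 6 of the 10 genes, *Fos*, *Fosb*, *Fosl2*, *Jun*, *Junb* and *Jund*, as windows from 250 bases before to 50 bases after a start site. *Fos* (chr12:85473890-85477273, plus strand, ENSMUSG00000021250), *Fosb* (chr7:19302696-19310051, minus strand, ENSMUSG00000003545), *Junb* (chr8:84974484-84978718, minus strand, ENSMUSG00000052837) and *Jun* (chr4:95049034-95052222, minus strand, ENSMUSG00000052684) are shown, because *Fos* fell with torin1 in both lines where its relative *Fosb* rose with MK-8722, and *Jun* fell with torin1 in WT where *Junb* was not called. With torin1 in DKO, *Fosb* was downregulated too (log2 fold change -0.49), and *Junb* was called (-0.27) where *Jun* was not (-0.089). *Fos* was not called with MK-8722 (-0.18 in WT and -0.19 in DKO). Its call with torin1 in WT depends on single libraries and on the scale, as given below. These genes were picked from the results, and a link between promoter letters and responses was not tested. Gene positions are those of the GRCm38 annotation. The 150 bases before the RefSeq start are printed 5′ to 3′ along the gene, with every TGACG (the core of a CREB site) and TATAAA in capitals.
Fos, chr12:85473740-85473889: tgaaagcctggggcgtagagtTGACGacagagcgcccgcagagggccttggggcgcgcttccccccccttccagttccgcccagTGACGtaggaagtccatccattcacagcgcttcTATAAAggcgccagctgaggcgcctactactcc
Fosb, chr7:19310046-19310195: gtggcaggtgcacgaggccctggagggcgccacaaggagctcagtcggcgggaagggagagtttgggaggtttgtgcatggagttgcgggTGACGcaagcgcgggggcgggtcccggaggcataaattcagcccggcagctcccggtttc
Junb, chr8:84978749-84978898: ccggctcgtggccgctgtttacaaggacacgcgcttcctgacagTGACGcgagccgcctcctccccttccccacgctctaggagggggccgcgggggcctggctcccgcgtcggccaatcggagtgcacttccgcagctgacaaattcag
Jun, chr4:95052223-95052372: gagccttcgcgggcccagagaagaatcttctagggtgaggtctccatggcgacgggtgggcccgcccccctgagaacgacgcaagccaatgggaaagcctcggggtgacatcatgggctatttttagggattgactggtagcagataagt
Both strands of the windows were searched for the CArG box of SRF, the CREB site TGACGTCA and its part TGACG, the AP-1 site TGANTCA, the E-box CACGTG, the EGR site GCGNGGGCG and TATAAA. The letters TGACG were found at positions -129 and -66 of *Fos*, -60 of *Fosb* and -106 of *Junb* (first base, counted back from the start) and in 20.8% of all 32817 windows. The TATAAA box was found at -33 of *Fos* and at the first base after the start of *Junb*, whose RefSeq start lies before that of the gene annotation, and in 13.6% of all windows. GCGNGGGCG was found at -50 of *Fosb* and -79 of *Fosl2* and in 5.56% of all windows. The windows of *Jun* and *Jund* held none of these letters. The RefSeq start of *Jund* lay before the start of the annotated gene and that of *Fosl2* inside it, so these windows are not those before the annotated starts. No window of the 6 genes held TGACGTCA (1.79% of all windows), TGANTCA (7.81%), CACGTG (7.15%) or a CArG box (1.63%). Sites more than 250 bases before a start, or with other letters than those searched, could not be found, so a gene may have such sites all the same.

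Torin1 against DMSO asks what loss of MTOR activity does to these genes, and 7 of the 10 were downregulated in WT and 7 of the 10 in DKO, with 0 upregulated in either. Of all genes tested, 20.5% were downregulated in WT and 20.2% in DKO, and 26.6% and 23% were upregulated. *Fosl1*, *Jund*, *Egr1*, *Ier2* and *Fos* were downregulated in both lines, *Jun* and *Fosl2* in WT, and *Fosb* and *Junb* in DKO. *Myc* passed the test in neither. The median log2 fold change of the 10 genes was -0.51 in WT and -0.58 in DKO, beside 0.049 and 0.021 over all genes tested. Torin1 and DMSO libraries did not overlap for 5 of the 10 genes in WT (54.1% of all genes tested) and 7 in DKO (52.8%). In these bulk libraries a lower level in each cell and fewer cells that express a gene cannot be told apart.

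*Egr1* (ENSMUSG00000038418) and *Fos* are both targets of SRF and its ternary complex factors. *Egr1* stood at 296, 279, 220.2 and 215 CPM in the 4 WT libraries with DMSO and at 179, 161, 144 and 155 CPM with torin1. In DKO it stood at 286, 263, 222 and 218 CPM with DMSO and at 85.2, 111, 71.8 and 78.1 CPM with torin1. Every torin1 library was below every DMSO library of its line, and the DKO libraries with torin1 were the lowest of all 24. Torin1 gave a log2 fold change of -0.66 (SE 0.16, edgeR adjusted p = 0.000854) in WT and -1.52 (SE 0.16, edgeR adjusted p = 2.80e-08) in DKO. *Fos* stood at 3.29, 3.40, 2.99 and 2.35 CPM in WT with DMSO and at 2.64, 1.75, 1.60 and 2.36 CPM with torin1, where the groups overlapped. In DKO *Fos* stood at 3.6, 3.24, 2.73 and 2.49 CPM with DMSO and at 1.12, 1.10, 0.934 and 1.00 CPM with torin1, where they did not. Its log2 fold change was -0.53 (SE 0.20, edgeR adjusted p = 0.0259) in WT and -1.54 (SE 0.22, edgeR adjusted p = 3.04e-06) in DKO. The 4 values of *Fos* in DKO with torin1 rest on 26 to 30 counts per library. The call of *Fos* in WT was lost without WT DMSO replicate 1 (-0.49), WT DMSO replicate 2 (-0.47), WT torin1 replicate 2 (-0.45) or WT torin1 replicate 3 (-0.45), and with library size alone as the scale (-0.44, adjusted p = 0.0619).

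*Ier2* (chr8:84661331-84662852, minus strand) fell to nearly the same level in both lines. It stood at 68.3, 63.0, 63.3 and 58.3 CPM in WT with DMSO and at 35.2, 35.2, 37.6 and 35.7 CPM with torin1, and in DKO at 75.9, 92.3, 75.7 and 74.9 and 36.0, 38.8, 34.2 and 43.0 CPM. The torin1 libraries of both lines fell in 1 narrow range, from 34.2 to 43.0 CPM, well below all others. Its log2 fold change was -0.82 (SE 0.090, edgeR adjusted p = 5.08e-08) in WT and -1.07 (SE 0.090, edgeR adjusted p = 8.33e-10) in DKO.

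*Jund* (chr8:70698949-70700616, plus strand), the JUN protein known for steady expression, stood at 193, 209.8, 207 and 215 CPM in WT with DMSO and at 127, 119, 109.9 and 124 CPM with torin1. In DKO it stood at 123, 102, 116 and 114 CPM with DMSO and at 69.1, 78.0, 71.5 and 66.4 CPM with torin1. The groups did not overlap in either line, and the DKO libraries with DMSO sat at the height of the WT libraries with torin1. On the log2 scale the change was -0.78 (SE 0.063, edgeR adjusted p = 3.76e-10) in WT and -0.67 (SE 0.064, edgeR adjusted p = 5.29e-09) in DKO. *Fosl1* (chr19:5447547-5455946, plus strand), which encodes FRA-1, stood at 162, 113, 153 and 117 CPM in WT with DMSO and at 53.1, 62.8, 106 and 84.0 CPM with torin1. In DKO it ranged from 106 to 174 CPM with DMSO and from 68.3 to 99.5 CPM with torin1, and the groups did not overlap in either line. The log2 fold change was -0.83 (SE 0.19, edgeR adjusted p = 0.000508) in WT and -0.79 (SE 0.19, edgeR adjusted p = 0.000843) in DKO, and within each of the 4 passages of each line the torin1 library held 0.472 to 0.656 (WT) or 0.539 to 0.642 (DKO) of the level of its DMSO library.

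*Fosl2*, *Jun* and *Junb* were called in 1 line each at most. *Fosl2* (chr5:32135801-32157842, plus strand), which encodes FRA-2, stood at 62.6, 64.6, 65.1 and 54.4 CPM in WT with DMSO and at 52.3, 41.8, 55.0 and 47.6 CPM with torin1, and was lower with torin1 in 4 of 4 passages. In DKO it stood at 149, 136, 139 and 142 CPM with DMSO and at 167, 175, 152 and 172 CPM with torin1, and was higher with torin1 in 4 of 4 passages. The log2 fold change was -0.33 (SE 0.093, edgeR adjusted p = 0.00417) in WT, a call lost without WT torin1 replicate 2 (-0.26) and with library size alone as the scale (-0.24), and 0.23 (SE 0.091, edgeR adjusted p = 0.0326) in DKO, where the fold change of 1.18 was under the threshold of 1.2 but passed it without DKO DMSO replicate 1 (0.27) or DKO torin1 replicate 3 (0.28) and with library size alone as the scale (0.27). In WT *Jun* fell with torin1, from 69.0 ± 7.03 CPM (SD, n = 4) to 49.0 ± 4.27 CPM (SD, n = 4), a log2 fold change of -0.49 (SE 0.081, edgeR adjusted p = 1.47e-05). In DKO *Jun* stood at 130.0 ± 9.91 CPM (SD, n = 4) with DMSO and 122 ± 9.48 CPM (SD, n = 4) with torin1, a log2 fold change of -0.089 with a 95% confidence interval of -0.26 to 0.079. *Junb* stood at 85.8 ± 10.4 CPM (SD, n = 4) and 91.8 ± 4.87 CPM (SD, n = 4) in WT, and fell from 201 ± 17.5 CPM (SD, n = 4) to 166 ± 8.52 CPM (SD, n = 4) in DKO, a log2 fold change of -0.27 (SE 0.086, edgeR adjusted p = 0.00933). That call was lost without DKO DMSO replicate 1 (-0.20) or DKO torin1 replicate 2 (-0.24) or replicate 3 (-0.26), and without any of WT torin1 replicate 1 or 3 or WT MK-8722 replicate 1, 2 or 4, none of which enters the comparison itself and each of which left -0.26, just under the threshold of 1.2. It was also lost without the 3 WT libraries of passage 11 (-0.26) and with library size alone as the scale (-0.24).

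*Fosb* and *Myc* were not called with torin1 in WT. *Fosb* stood at 1.88, 2.29, 2.31 and 2.04 CPM in WT with DMSO and at 2.06, 1.75, 2.07 and 2.11 CPM with torin1, and in DKO at 2.54, 2.99, 2.65 and 3.69 and 2.13, 1.36, 1.83 and 3.11 CPM, where the groups overlapped. Its log2 fold change in DKO was -0.49 (SE 0.19, edgeR adjusted p = 0.029), a call lost without DKO DMSO replicate 4 (-0.37) or DKO torin1 replicate 1 (-0.49), 2 (-0.32) or 3 (-0.42) and when the fit held only the groups compared (adjusted p = 0.0803). *Myc* (chr15:61985391-61990374, plus strand) stood at 144, 138, 127 and 109.9 CPM in WT with DMSO and at 151, 127, 169.8 and 132 CPM with torin1. In DKO *Myc* stood at 181, 258, 219.2 and 209.7 CPM with DMSO and at 257, 232, 259.8 and 302 CPM with torin1. *Myc* was higher with torin1 in 4 of 4 passages of each line, with a log2 fold change of 0.16 (SE 0.13, edgeR adjusted p = 0.309) in WT and 0.28 (SE 0.13, edgeR adjusted p = 0.0793) in DKO. With passage within line as a block in the fit, the DKO difference was called (0.28, adjusted p = 5.4e-06), as it was when the fit held only the groups compared (adjusted p = 0.0243), with library size alone as the scale (0.31), without DKO DMSO replicate 2 (0.36), DKO torin1 replicate 2 (0.34) or DKO MK-8722 replicate 4 (0.28), and without the 3 DKO libraries of passage 8 (0.30).

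**Figure D2:**
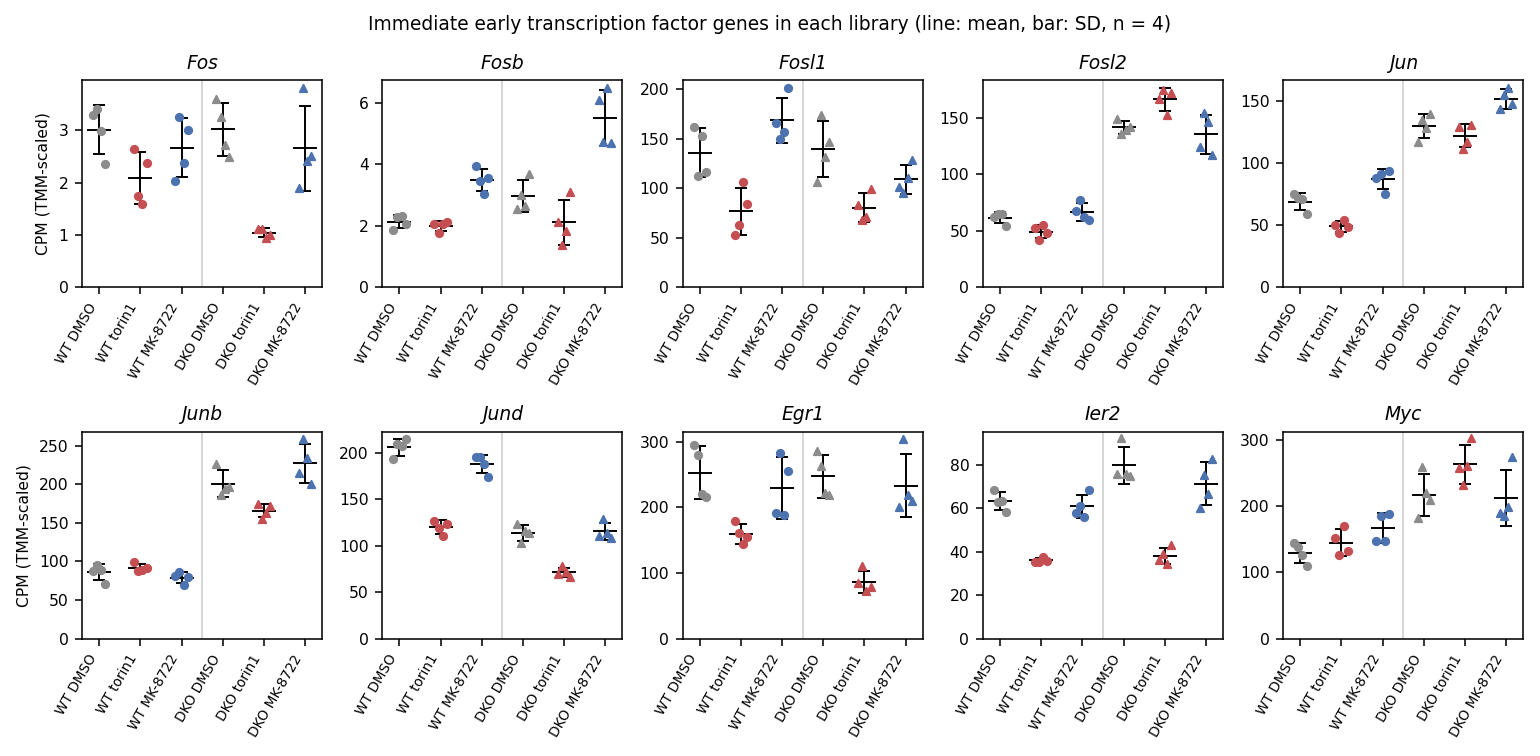
CPM of each gene in each of the 24 libraries, WT as circles and DKO as triangles, with the mean and SD of each group of 4. The torin1 libraries of *Ier2* sit between 34.2 and 43.0 CPM in both lines, and those of *Egr1* sit at 144 to 179 CPM in WT and 71.8 to 111 CPM in DKO.

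The interaction of drug and genotype asks whether torin1 acted differently in the 2 lines, and it was called for 5 of the 10 genes. *Egr1*, *Fos* and *Junb* had a lower log2 fold change in DKO (6.33% of all genes tested were called in that direction), and *Fosl2* and *Jun* a higher one (4.68%). The difference of the responses, DKO minus WT, was -0.86 (SE 0.22, edgeR adjusted p = 0.0103) for *Egr1*. For *Fos* it was -1.004 (SE 0.30, edgeR adjusted p = 0.0257). For *Fosl2* it was 0.56 (SE 0.13, edgeR adjusted p = 0.00475), and for *Jun* 0.41 (SE 0.11, edgeR adjusted p = 0.0174). For *Junb* it was -0.37 (SE 0.12, edgeR adjusted p = 0.0427). The calls of *Egr1*, *Fosl2* and *Jun* were made with each library left out in turn, whereas that of *Junb* was made in 6 of the 24 cases (without WT DMSO replicate 2, WT MK-8722 replicate 3, DKO DMSO replicate 2 or DKO MK-8722 replicate 1, 2 or 4), lost in the other 18 (-0.42 to -0.28 over all 24) and lost with DESeq2 size factors (-0.35). *Fos* was not called without WT DMSO replicate 4 (-0.89), WT torin1 replicate 1 (-0.83) or 4 (-0.93), DKO DMSO replicate 1 (-0.89) or DKO torin1 replicate 3 (-0.95) or 4 (-0.98). Without the 3 WT libraries of passage 11, 3 genes were called, and *Fos* (-0.89, adjusted p = 0.0574) and *Junb* (-0.34, adjusted p = 0.0603) were not. Without the 3 DKO libraries of passage 8 *Fos* was not called (-0.94, adjusted p = 0.0868). *Fosl1*, *Jund*, *Ier2*, *Fosb* and *Myc* were not called, with 95% confidence intervals of the difference from -0.51 to 0.58, -0.080 to 0.30, -0.52 to 0.012, -0.95 to 0.16 and -0.28 to 0.51.

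MK-8722 against DMSO asks what AMPK activation does to the same genes. *Fosb*, *Jun* and *Myc* were upregulated in WT, 3 of the 10 with 0 downregulated, where 10.3% of all genes tested were upregulated and 5.87% downregulated. *Fosb* alone was upregulated in DKO, 1 of the 10 with 0 downregulated, where 5.47% of all genes tested were upregulated and 3.21% downregulated. The median log2 fold change of the 10 genes was 0.028 in WT and -0.051 in DKO, beside -0.015 and 0 over all genes tested. MK-8722 and DMSO libraries did not overlap for 3 of the 10 genes in WT (29.8% of all genes tested) and 2 in DKO (21.1%).

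*Fosb* responded in both lines. It stood at 3.94, 3.44, 3.04 and 3.54 CPM in WT with MK-8722 against 1.88 to 2.31 CPM with DMSO, and at 6.08, 4.73, 6.47 and 4.70 CPM in DKO with MK-8722 against 2.54 to 3.69 CPM with DMSO. The groups did not overlap in either line, and DKO with MK-8722 held the 4 highest libraries of the 24. MK-8722 gave a log2 fold change of 0.71 (SE 0.18, edgeR adjusted p = 0.00409) in WT and 0.90 (SE 0.17, edgeR adjusted p = 0.000791) in DKO, and both calls were made with each library left out in turn, also without DKO MK-8722 replicate 3, whose RNA integrity number of 7.9 was the lowest. These values rest on 37 to 185 counts of *Fosb* per library over all 24. *Fos*, its relative, was not called with MK-8722, at 2.03, 3.26, 2.37 and 3.0 CPM in the WT libraries and 1.89, 3.81, 2.41 and 2.51 CPM in those of DKO.

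*Jun* stood at 88.4, 91.3, 75.5 and 93.5 CPM in WT with MK-8722, every library above the 58.8 to 74.9 CPM with DMSO, a log2 fold change of 0.34 (SE 0.080, edgeR adjusted p = 0.00255). In DKO *Jun* stood at 143, 155, 161 and 148 CPM with MK-8722 and at 117, 135, 129 and 139.9 CPM with DMSO, without overlap. The DKO log2 fold change of 0.22 (SE 0.080, edgeR adjusted p = 0.0511) was not called, and the fold change of 1.17 was also under the threshold of 1.2. It stayed under that threshold with passage within line as a block (0.23, edgeR adjusted p = 0.0007). The same held with library size alone as the scale (0.23, edgeR adjusted p = 0.0397). *Myc* stood at 147, 184, 147 and 188 CPM in WT with MK-8722, above all 4 DMSO libraries, a log2 fold change of 0.36 (SE 0.13, edgeR adjusted p = 0.0412). This call was lost without WT DMSO replicate 3 (0.35) or 4 (0.29), without WT MK-8722 replicate 2 (0.30) or 4 (0.28), without the 3 WT libraries of passage 11 (0.33) and with the replicate number as a block (0.35, adjusted p = 0.0556). In DKO *Myc* stood at 189, 185, 198 and 275 CPM with MK-8722, and its log2 fold change was -0.037 (SE 0.13, edgeR adjusted p = 0.886).

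*Fosl1* was higher with MK-8722 in every WT passage and lower in every DKO passage, without being called. It stood at 167, 150.1, 157 and 202 CPM in WT with MK-8722 (passages 8, 11, 9 and 7) against 162, 113, 153 and 117 CPM with DMSO (passages 7, 11, 8 and 9), so that the MK-8722 library of a passage was 1.09 to 1.34 times its DMSO library in 4 of 4 passages. In DKO it stood at 101, 95.7, 111 and 129 CPM with MK-8722 (passages 9, 11, 10 and 8) against 106, 174, 131 and 147 CPM with DMSO (passages 11, 8, 10 and 9), or 0.688 to 0.899 times its DMSO library in 4 of 4 passages. Among DMSO libraries alone the passages ranged from 113 to 162 CPM in WT and from 106 to 174 CPM in DKO, and the drug and DMSO groups overlapped in both lines. The log2 fold change was 0.31 (SE 0.18, edgeR adjusted p = 0.221) in WT and -0.36 (SE 0.18, edgeR adjusted p = 0.189) in DKO, and neither was called. With passage within line as a block, both were called, at 0.32 (adjusted p = 0.00094) and -0.34 (adjusted p = 0.00097).

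*Junb*, *Jund*, *Egr1*, *Ier2* and *Fosl2* were also not called with MK-8722 in either line, and their log2 fold changes lay between -0.16 (*Ier2* in DKO) and 0.18 (*Junb* in DKO). The 95% confidence intervals reached from -0.30 to 0.066 for *Junb* in WT and from -0.0040 to 0.36 in DKO, and from -0.47 to 0.19 for *Egr1* in WT and from -0.41 to 0.24 in DKO.

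The interaction of MK-8722 and genotype was called by edgeR for 0 of the 10 genes and by DESeq2 for 0, and 5.49% of all genes tested were called. At an unadjusted p under 0.05 there were 3 genes, *Fosl1*, *Junb* and *Myc*. The difference of the responses, DKO minus WT, was -0.67 (SE 0.26, edgeR adjusted p = 0.155) for *Fosl1*, 0.29 (SE 0.12, edgeR adjusted p = 0.19) for *Junb* and -0.40 (SE 0.19, edgeR adjusted p = 0.271) for *Myc*. With passage within line as a block in the fit, the 3 genes were called, with differences of -0.66 for *Fosl1* (adjusted p = 7.8e-05), 0.29 for *Junb* (adjusted p = 0.023) and -0.40 for *Myc* (adjusted p = 6.2e-05). *Myc* was also called without DKO MK-8722 replicate 4 (-0.55).

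**Figure D3:**
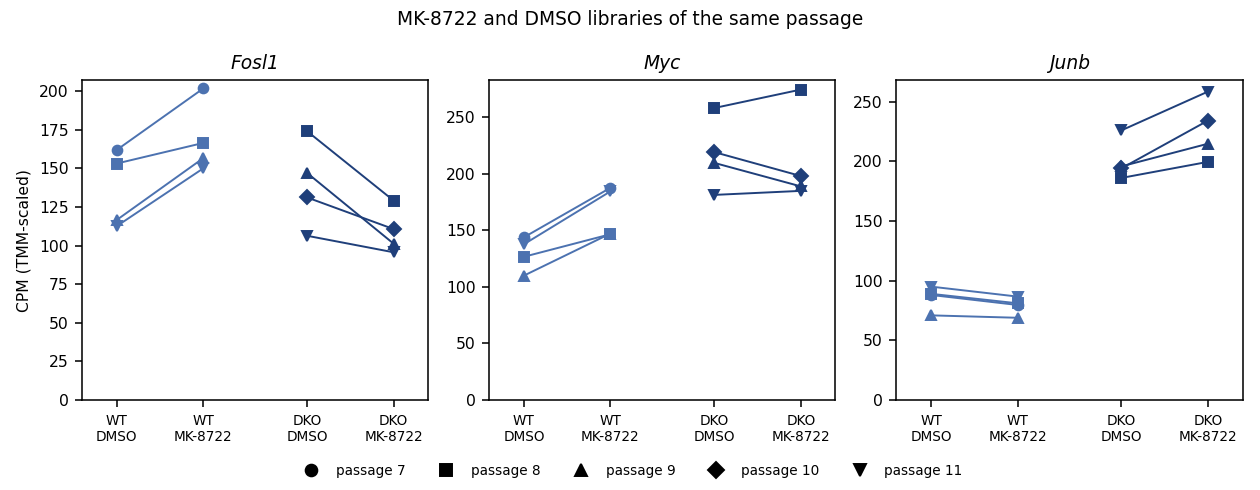
CPM of *Fosl1*, *Myc* and *Junb* in DMSO and MK-8722 libraries, each line joining the libraries of 1 passage (marker) of 1 line of MEFs. *Fosl1* was higher with MK-8722 in 4 of 4 WT passages and lower in 4 of 4 DKO passages, and *Myc* was higher in 4 of 4 WT passages and in 2 of 4 DKO passages.

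**Figure D4:**
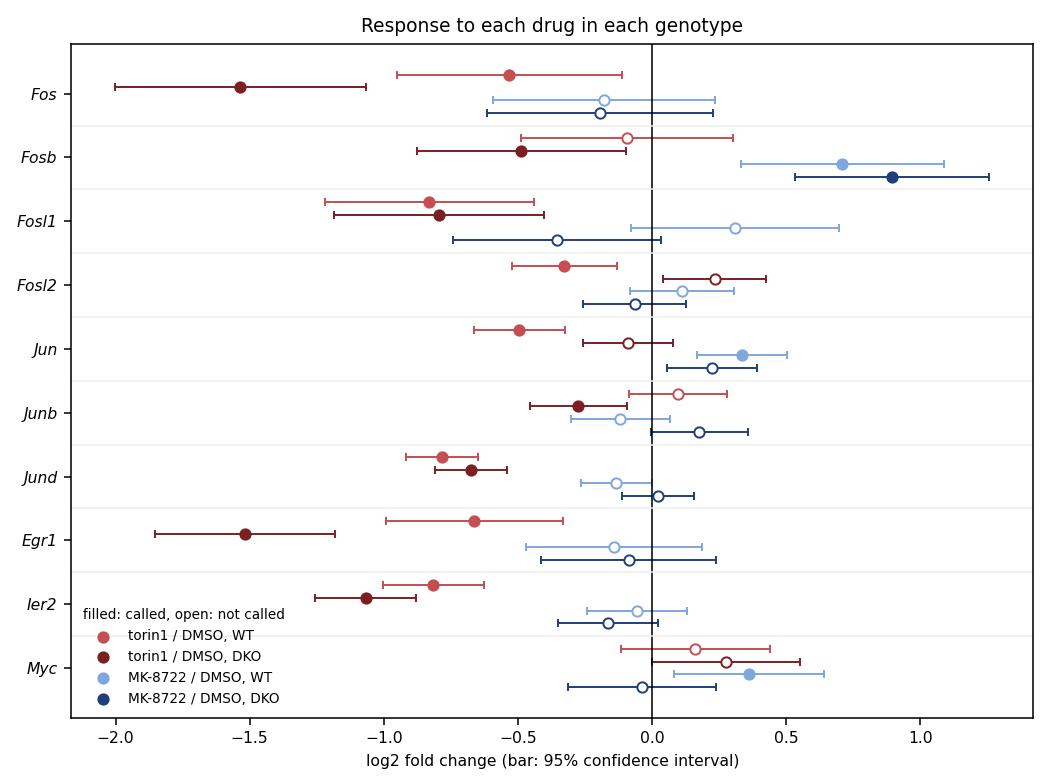
Log2 fold change of each gene with torin1 or MK-8722 against DMSO in WT and DKO, with 95% confidence intervals from edgeR; filled points were called. *Egr1* and *Fos* lie near -1.5 with torin1 in DKO (-1.52 and -1.54), and *Fosb* is the called gene to the right of 0 with MK-8722 in both lines.

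Torin1 against MK-8722 compares the drugs directly, without the DMSO libraries that both of the comparisons above share. In WT 7 of the 10 genes were lower with torin1 (*Fosb*, *Fosl1*, *Fosl2*, *Jun*, *Jund*, *Egr1* and *Ier2*), with 0 higher, where 20% of all genes tested were lower and 24.9% higher. The largest difference there was that of *Fosl1*, a log2 fold change of -1.14 (SE 0.19, edgeR adjusted p = 1.64e-05). *Fos* in WT stood at -0.35 (SE 0.20, edgeR adjusted p = 0.144) and was called when passage within line was a block (-0.36, adjusted p = 0.0491) and without WT torin1 replicate 1 (-0.51). *Junb* in WT stood at 0.22 (SE 0.087, edgeR adjusted p = 0.0374), under the fold change of 1.2 except with library size alone as the scale (0.29), and *Myc* at -0.20 (SE 0.13, edgeR adjusted p = 0.2). In DKO all 10 genes were called, 8 lower with torin1 (19.3% of all genes tested) and 2 higher, *Fosl2* and *Myc* (21.1%). The log2 fold change was -1.43 (SE 0.16, edgeR adjusted p = 8.22e-08) for *Egr1*, -1.38 (SE 0.18, edgeR adjusted p = 6.60e-07) for *Fosb* and -1.34 (SE 0.22, edgeR adjusted p = 2.18e-05) for *Fos*. That of *Fosl1* was -0.44 (SE 0.19, edgeR adjusted p = 0.0491), a call made in 8 of the 24 cases with 1 library left out (WT DMSO replicate 2, WT torin1 replicate 1, 2 or 3, DKO DMSO replicate 1 or 2, DKO torin1 replicate 4 or DKO MK-8722 replicate 2) and lost in 16 (-0.55 to -0.34 over all 24). It was also lost with DESeq2 size factors (adjusted p = 0.0504), in DESeq2's Wald test (adjusted p = 0.0575), with library size alone as the scale (adjusted p = 0.061) and without the 3 DKO libraries of passage 8 (adjusted p = 0.061). That of *Myc* was 0.31 (SE 0.13, edgeR adjusted p = 0.0483), a call lost without DKO DMSO replicate 3 or 4 (0.31 each), DKO torin1 replicate 1 (0.33), 3 (0.33) or 4 (0.25) or DKO MK-8722 replicate 1 (0.26), 2 (0.25) or 3 (0.29), without the filter (adjusted p = 0.0562), in DESeq2's Wald test (adjusted p = 0.0563) and with the replicate number as a block (adjusted p = 0.0544). *Fosl2* stood at 0.30 (SE 0.091, edgeR adjusted p = 0.00787), a call lost without DKO MK-8722 replicate 1 (0.26) or 4 (0.24) and without the 3 DKO libraries of passage 8 (0.23, adjusted p = 0.0786), and *Jun* at -0.31 (SE 0.080, edgeR adjusted p = 0.00202), a call lost without DKO torin1 replicate 2 (-0.26). *Junb*, *Jund* and *Ier2* were lower at -0.45, -0.70 and -0.90.

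*tfeb tfe3* DKO against WT within a treatment compares the 2 lines, where loss of TFEB and TFE3 cannot be told apart from other differences between them. With DMSO, *Fosl2*, *Junb*, *Jun*, *Myc*, *Fosb* and *Ier2* were higher in DKO (6 of the 10, with 23.5% of all genes tested) and *Jund* was lower (1 of the 10, with 24.6%). With torin1, *Fosl2*, *Jun*, *Junb* and *Myc* were higher (4 of the 10, with 24%) and *Fos*, *Egr1* and *Jund* lower (3 of the 10, with 27.8%). With MK-8722, *Junb*, *Fosl2*, *Jun*, *Fosb* and *Myc* were higher (5 of the 10, with 23.3%) and *Jund* and *Fosl1* lower (2 of the 10, with 25.4%). DKO and WT libraries did not overlap for 7 of the 10 genes with DMSO (56.8% of all genes tested), 7 with torin1 (60.3%) and 6 with MK-8722 (54.7%).

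*Fosl2*, *Jun*, *Junb* and *Myc* were higher and *Jund* was lower in DKO in all 3 treatments. *Junb* stood at 88.0, 95, 89.0 and 70.9 CPM in WT and at 226, 186, 194 and 196 CPM in DKO with DMSO, and with MK-8722 at 81.0, 86.7, 68.9 and 79.6 and 215, 259, 234 and 199.7 CPM. The lowest DKO library of any treatment, at 155 CPM, was above the highest WT library, at 98.8 CPM. Its log2 fold change was 1.23 (SE 0.088, edgeR adjusted p = 3.65e-11) with DMSO, 0.85 (SE 0.087, edgeR adjusted p = 1.13e-08) with torin1 and 1.52 (SE 0.089, edgeR adjusted p = 9.72e-13) with MK-8722. For *Fosl2* it was 1.2 (SE 0.093, edgeR adjusted p = 1.41e-10) with DMSO, 1.76 (SE 0.094, edgeR adjusted p = 2.04e-13) with torin1 and 1.02 (SE 0.093, edgeR adjusted p = 1.83e-09) with MK-8722, and the 12 DKO libraries, from 117 to 175 CPM, were above the 12 WT libraries, from 41.8 to 77.4 CPM. *Jun* differed by 0.91, 1.32 and 0.80 in the same order, from 43.9 to 93.5 CPM in WT and from 112 to 161 CPM in DKO. *Jund* differed by -0.86, -0.75 and -0.70. The JUN genes thus did not move as 1 group, with *Jun* and *Junb* higher and *Jund* lower in the same libraries. *Myc* differed by 0.74 (SE 0.13, edgeR adjusted p = 3.76e-05) with DMSO, 0.86 (SE 0.13, edgeR adjusted p = 5.37e-06) with torin1 and 0.35 (SE 0.13, edgeR adjusted p = 0.0267) with MK-8722, and the last call was lost without WT MK-8722 replicate 1 (0.28) or 3 (0.29) or DKO MK-8722 replicate 4 (0.20), without the 3 DKO libraries of passage 8 (0.20) and with library size alone as the scale (0.27).

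*Fos* and *Egr1* were called lower in DKO with torin1 and were not called with DMSO or MK-8722, and the tests of that difference are the interactions above. The log2 fold change with torin1 was -1.001 (SE 0.23, edgeR adjusted p = 0.000487) for *Fos* and -0.89 (SE 0.16, edgeR adjusted p = 3.38e-05) for *Egr1*. With DMSO the difference of *Egr1* was -0.031 with a 95% confidence interval of -0.36 to 0.30, and that of *Fos* was 0.0027 with an interval of -0.41 to 0.42. *Fosl1* differed with MK-8722, at -0.63 (SE 0.18, edgeR adjusted p = 0.00513), and its interval with DMSO was -0.35 to 0.42. *Fosb* was higher with DMSO, at 0.47 (SE 0.18, edgeR adjusted p = 0.0285), and with MK-8722, at 0.66 (SE 0.17, edgeR adjusted p = 0.00171), and the call with DMSO was lost without WT DMSO replicate 1 (0.42) or 4 (0.46) or DKO DMSO replicate 2 (0.47) or 4 (0.35), without the WT libraries of passage 11 (0.48) and with library size alone as the scale (0.40). *Ier2* was higher with DMSO, at 0.33 (SE 0.088, edgeR adjusted p = 0.00222), and that call was lost without DKO DMSO replicate 2 (0.25), without the 3 DKO libraries of passage 8 (0.26) and with library size alone as the scale (0.26). With MK-8722 *Ier2* stood at 0.23 (SE 0.089, edgeR adjusted p = 0.0307), under the fold change of 1.2 except without WT MK-8722 replicate 4 (0.28) or DKO MK-8722 replicate 1 (0.30). Scaling by library size alone shifted all log2 fold changes of DKO against WT with torin1 by -0.13, and those of the other 6 comparisons against DMSO or WT by -0.075 to 0.092.

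**Figure D5:**
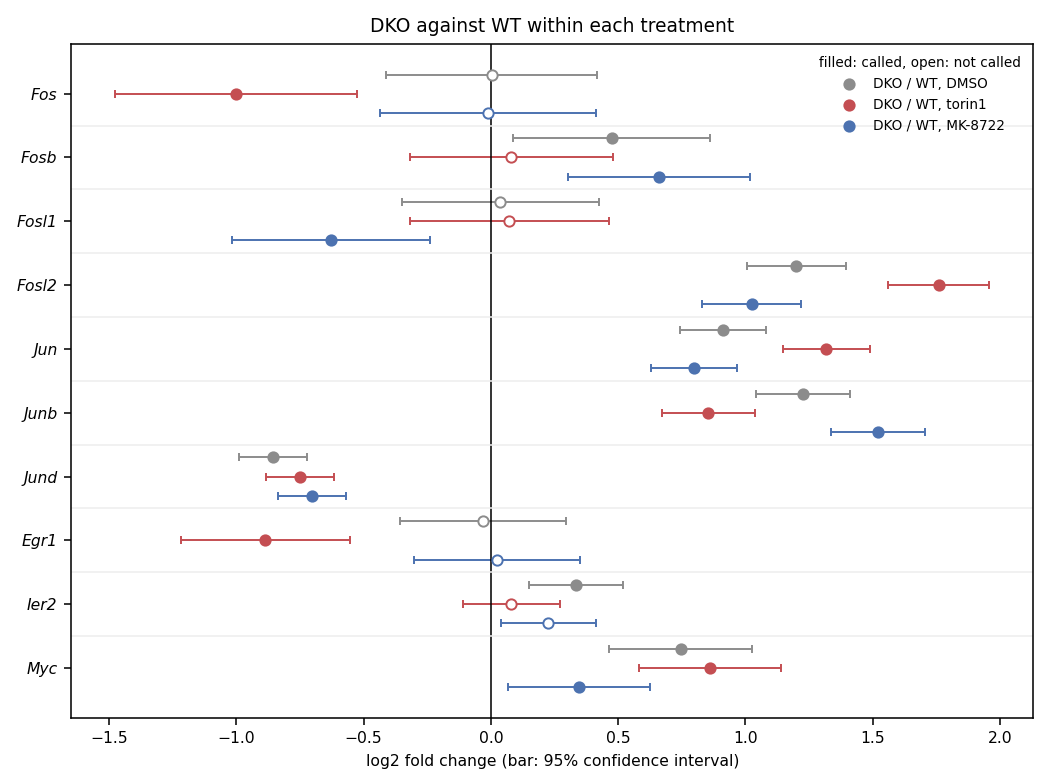
Log2 fold change of each gene in DKO against WT within each treatment, with 95% confidence intervals from edgeR; filled points were called. *Fosl2*, *Jun*, *Junb* and *Myc* lie to the right of 0 and *Jund* to the left in all 3 treatments, and *Fos* and *Egr1* lie to the left with torin1 (-1.001 and -0.89).

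Across the 24 libraries *Fos* and *Egr1* had the most similar patterns of the 10 genes, with a Pearson r of 0.963 between their log2 CPM over all groups and 0.821 after each group's mean was taken out. Each was the other's nearest gene among the 15401. The next nearest to *Fos* were *Creb3l1* (r = 0.895) and *Gabpb1* (r = 0.884), and to *Egr1* *Tm2d2* (r = 0.931) and *Creb3l1* (r = 0.92). Nearest to *Fosl1* were *Nop16* (r = 0.926), *Pprc1* (r = 0.921) and *Tead4* (r = 0.912), and to *Myc* *Rxylt1* (r = 0.952), *Aig1* (r = 0.951) and *Irs1* (r = 0.937). The points of each r share the 6 groups, the 2 lines and their passages, and genes called in the same comparisons resemble each other for that reason. After the group means were taken out, *Fosl1* and *Jund* ran opposite (r = -0.784), as did *Myc* and *Jund* (r = -0.687), while *Ier2* ran with *Myc* (r = 0.717) and *Junb* with *Fosl2* (r = 0.708).

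Other genes of these pathways were counted from lists, with log2 fold changes in parentheses, and the medians of the lists stand beside 0.049 and 0.021 over all genes with torin1 and -0.015 and 0 with MK-8722, in WT and DKO. Over all genes torin1 upregulated 26.6% and downregulated 20.5% in WT and 23% and 20.2% in DKO, MK-8722 10.3% and 5.87% in WT and 5.47% and 3.21% in DKO, and in DKO against WT 23.5% were higher and 24.6% lower with DMSO and 24% and 27.8% with torin1. Of 29 other immediate early and serum response genes tested, torin1 upregulated 5 and downregulated 10 in WT and 12 and 8 in DKO, and their median log2 fold change was -0.12 and -0.034. *Atf3*, a stress-induced bZIP factor, was the most changed in WT (-2.01), followed by *Egr3* (-1.36) and *Nfil3* (-1.20), and the leading genes in DKO were *Egr3* (-2.11), *Sgk1* (1.36) and *Arc* (-1.07). MK-8722 upregulated 9 and downregulated 6 of them in WT and 7 and 5 in DKO (medians 0.041 and -0.019). *Klf2*, a Krüppel-like factor, fell with MK-8722 by 1.96 on the log2 scale in WT and by 1.84 in DKO, and *Rhob* by 1.15 and 1.16, while *Ptgs2*, which encodes COX-2, rose by 1.42 in WT and *Ccn1* by 0.85 in DKO. In DKO against WT, 17 of the 29 were higher and 4 lower with DMSO (median 0.42, beside -0.0078 over all genes).

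Of 12 genes for SRF, its partners and CREB, torin1 upregulated 1 and downregulated 3 in WT and 3 and 3 in DKO. *Elk3* (-0.55), *Mrtfa* (-0.50) and *Atf1* (-0.31) were lower in WT, and in DKO *Srf* (-0.65) was lower and *Crtc1* (0.45) and *Mrtfb* (0.39) higher. The median was 0.036 in WT and -0.053 in DKO with torin1 and 0.0024 and -0.0025 with MK-8722. MK-8722 changed 2 of them in WT, *Elk1* (0.50) and *Crtc1* (-0.29), and 0 in DKO. Of all genes tested, it upregulated 10.3% and downregulated 5.87% in WT and 5.47% and 3.21% in DKO. Of 10 other AP-1 partners tested, torin1 upregulated 4 and downregulated 3 in WT and 2 and 3 in DKO, with *Jdp2*, a repressor that pairs with JUN proteins, lower by 1.71 and 1.95. In WT *Maf* (0.85) was higher and *Batf3* (-0.59) lower, and in DKO *Batf3* (-0.65) and *Mafk* (-0.58) were lower. MK-8722 upregulated 3 and downregulated 1 in WT and 2 and 1 in DKO, and the small MAF genes led with *Maff* (1.03), *Mafg* (0.96) and *Mafk* (0.45) in WT and *Mafg* (0.35) and *Maff* (0.34) in DKO, beside *Jdp2* (-0.33). The median was 0.28 in WT and -0.046 in DKO with torin1 and 0.085 and 0.21 with MK-8722.

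Of 15 textbook targets of AP-1, torin1 upregulated 4 and downregulated 5 in WT and 8 and 2 in DKO, where the summed TPM of the subunits was lower than with DMSO. The 4 of 15 in WT is near the share of all genes upregulated (26.6%). The collagenase gene *Mmp13* was higher by 1.84 in WT and 1.92 in DKO, *Mmp3* by 0.98 in WT, *Mmp10* by 1.49 and *Mmp9* by 1.12 in DKO, and *Ccnd1* was lower in WT (-1.10). MK-8722 upregulated 5 and downregulated 4 in WT and 3 and 1 in DKO, with *Plaur* higher by 0.74 and 0.84, *Mmp9* (-0.90) and *Mmp10* (-0.75) lower in WT, and *Il11* (0.88) and *Itga5* (0.72) higher in DKO. Of all genes tested, MK-8722 upregulated 10.3% and downregulated 5.87% in WT and 5.47% and 3.21% in DKO. The median was -0.055 in WT and 0.33 in DKO with torin1 and 0.23 and 0.081 with MK-8722. In DKO against WT, 11 of the 15 targets were higher and 1 lower with torin1, and 9 and 2 with DMSO (medians 0.86 and 0.30). Of 10 tested genes of the MYC network, torin1 upregulated 4 and downregulated 3 in WT and 4 and 2 in DKO, with *Mycl* higher (1.07 and 1.01), *Mlx* lower (-0.59 and -1.04), *Mxi1* higher in WT (0.52) and *Mnt*, a MYC antagonist, higher in DKO (0.73). MK-8722 upregulated 1 and downregulated 3 of them in WT and 1 and 1 in DKO, with *Mxd4* (-0.73), *Mxd3* (-0.71) and *Mycl* (-0.47) lower in WT, and *Mxd1* (0.42) higher and *Max* (-0.31) lower in DKO. The median was 0.16 in WT and 0.13 in DKO with torin1 and 0.012 and -0.013 with MK-8722.

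*Myc* was not called with torin1, where most textbook targets of MYC were lower. Of 16 targets, 12 were downregulated in WT and 12 in DKO with 0 upregulated in either, and their median log2 fold change was -0.44 and -0.40, while *Myc* stood at 0.16 and 0.28. Of all genes tested, torin1 downregulated 20.5% in WT and 20.2% in DKO. *Ccnd2* fell by 2.08 and 1.98 on the log2 scale, *Shmt2*, of mitochondrial serine metabolism, by 1.23 and 1.31, *Rcc1* by 1.12 in WT and *Ldha* by 0.91 in DKO. With MK-8722, where *Myc* was upregulated in WT, 2 of the 16 were downregulated in WT (*Bop1*, -0.49, and *Ldha*, -0.30) and 8 in DKO, led by *Bop1* (-0.44), *Srm* (-0.35) and *Nme1* (-0.32), with 0 upregulated in either and medians of -0.13 and -0.27. MK-8722 downregulated 5.87% of all genes tested in WT and 3.21% in DKO. In DKO against WT with DMSO, where *Myc* was higher, 5 of the 16 targets were higher and 1 lower, with a median of -0.00035 beside -0.0078 over all genes. Of all genes tested, 23.5% were higher there and 24.6% lower, so the 5 of 16 higher is near its share.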

How the data were processed

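The 24 libraries were sequenced and processed by the authors, who used the nf-core/rnaseq workflow with STAR, GRCm38 and salmon and took unique molecular identifiers into account. The files deposited hold estimated counts per gene and, per library, estimated counts and TPM per transcript. Library size and gene length had not been corrected in the counts. All 24 sample columns were mapped by name.

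Estimated counts were rounded to whole numbers and filtered with filterByExpr of edgeR (minimum count 10), which left 15401 of 55487 genes. A model with 1 mean for each of the 6 groups was fitted with edgeR 4.0.16 in R 4.3.3 (limma 3.58.1), with TMM scaling and a biological coefficient of variation of 10.7%, and 11 contrasts were taken with the quasi-likelihood test and Benjamini-Hochberg adjustment. SE were taken from the log2 fold change and its F statistic, and 95% confidence intervals from 18 residual degrees of freedom before moderation. The fit was also run on simulated counts in which 200 genes changed, in WT with torin1 alone, and passage had no effect. Passage effects like those in these data were not part of that run. TPM were summed over the transcripts of a gene and not tested. The authors also used a batch removal step that was not repeated, since the labels give 1 batch.

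The 10 genes, the 6 gene lists, the markers and the motifs were chosen with earlier results of these data known. All 10 genes are named, and from each list at most the 3 called genes with the largest change in each drug comparison. Alternatives were DESeq2 1.42.0 (size factors, and its Wald test), library size as the scale, no filter, the edgeR 4 form, no fold change threshold, the compared groups alone, blocks for replicate number or passage, and leaving out each library, the WT libraries of passage 11 or the DKO libraries of passage 8. No pair of replicates agreed within sampling noise (chi-square per degree of freedom of 3.86 to 39.6).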

Additional observations from a re-analysis of the deposited data

Results flagged for a closer look

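The response to torin1 differed between the lines by the interaction test for *Fos* (-1.004, DKO minus WT on the log2 scale), *Egr1* (-0.86), *Fosl2* (0.56), *Jun* (0.41) and *Junb* (-0.37), as given above with the libraries on which *Fos* and *Junb* depend.

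In 3 of the 60 sets of 4 libraries (10 genes in 6 groups), 1 library stood far from the other 3, and chance marks about 1 set in 20. *Fosb* in WT with torin1 was lowest in replicate 2 at 1.75 CPM. *Ier2* in DKO with DMSO was highest in replicate 2, of passage 8, at 92.3 CPM, the library without which the call of *Ier2* in DKO against WT was lost. *Myc* in DKO with MK-8722 was highest in replicate 4, of passage 8, at 275 CPM, the library without which the difference of the MK-8722 responses of *Myc* was called.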

How the results depend on the processing

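Of 110 values (10 genes in 11 comparisons), 61 were called, and 0 of these reversed under any of the alternatives run. The call was lost for 2 and gained for 0 with DESeq2 size factors, 2 and 0 with the DESeq2 Wald test, 7 and 3 with library size as the scale, 1 and 0 without the filter, 1 and 1 with the compared groups alone, 0 and 3 without the fold change threshold, 5 and 0 without the WT libraries of passage 11, and 5 and 1 without the DKO libraries of passage 8. Over 2640 values with 1 library left out, 80 calls were lost and 9 gained.

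The number of the 10 genes called ranged, with each library left out in turn, from 5 to 7 for torin1 and 2 to 3 for MK-8722 in WT, 6 to 8 for torin1 and 1 to 1 for MK-8722 in DKO, 5 to 7, 7 to 7 and 6 to 8 for DKO against WT with DMSO, torin1 and MK-8722, 3 to 5 and 0 to 1 for the difference of the torin1 and MK-8722 responses, and 7 to 8 and 7 to 10 for torin1 against MK-8722 in WT and DKO. Without the WT libraries of passage 11 the torin1 responses of 3 genes differed, in place of 5. The cause was not tested.

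The replicate block, a term for the replicate number, ended 2 calls, that of *Myc* with MK-8722 in WT (0.35, adjusted p = 0.0556) and that of *Myc* for torin1 against MK-8722 in DKO (0.32, adjusted p = 0.0544). Deviations of libraries of the same number in different groups had a median r of 0.044, over 0.1 in 13 of 60 pairs. Those of the same passage and line had a median r of 0.157 (lowest 0.022), over 0.1 in 17 of 24 pairs. Other pairs in different groups had a median r of -0.023, over 0.1 in 8 of 163. In DKO, torin1 and MK-8722 libraries of the same number were also of the same passage, so number and passage are not separate there. A passage block lost 0 and gained 7 calls, with 2 genes called for MK-8722 in DKO in place of 1 and 3 for the difference of the MK-8722 responses in place of 0.

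Depth limits *Fos* and *Fosb*, whose counts per library lay between 26 and 185. Each treatment has 4 cultures of 1 line, so that nothing here separates the deletion from other differences between the lines, and *Myc* and *Fosb* counts are split over several transcripts.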
